A study of Mus musculus with 9 samples.

Results

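Interleukin-2 (IL-2) is the cytokine that regulatory T cells (Tregs) depend on and do not make themselves. The response described here is that of mouse Tregs to 4 h of wild-type (WT) IL-2 after a night without it, and it rests on 3 libraries with WT IL-2 and 3 libraries without IL-2, out of 9 in the series. All cells were Tregs of the BALB/c strain from spleen, sorted by a green fluorescent protein linked to Foxp3 and then given, by transduction, a beta chain of the IL-2 receptor altered to an orthogonal form and marked with human EGFR. Per the labels' treatment protocol, every group first spent 48 h on beads against CD3 and CD28 in human IL-2 at 1000 IU/mL, was purified on magnets through the EGFR mark and then rested overnight in medium without IL-2. One group then had 20000 IU/mL WT IL-2 for 4 h, and the controls had none. The other 3 libraries had 2000000 IU/mL of an orthogonal (ortho) IL-2 for the same time, and enter here only the gene filter, the shared estimate of the spread and the test of where the WT response differs from theirs. The controls are thus activated cells after loss of IL-2, not resting cells, and both groups carry the transduced chain. The labels do not say whether replicate libraries are different cultures or animals, so p-values cover the spread among these libraries alone, and that spread may be technical.

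IL-2 binds a receptor of an alpha chain (CD25, gene Il2ra), a beta chain (Il2rb) and a gamma chain shared with other cytokines (Il2rg). The kinases JAK1 and JAK3, held by the beta and gamma chains, phosphorylate STAT5, which enters the nucleus and binds DNA at the motif TTCNNNGAA. The same receptor also feeds the PI3 kinase and mTORC1 pathway and the RAS and ERK pathway. In Tregs, STAT5 is known to maintain Foxp3, the factor that defines the lineage, and CD25 itself.

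The members are the 10702 genes, of 23992 symbols in the tables, that reached 1 RPKM (reads per kilobase of transcript, divided by the size of the library) in at least 3 of the 9 libraries. Levels are given as RPKM scaled between libraries by edgeR's TMM method, which are per length and so can be compared between genes. Fold changes are on the log2 scale, WT IL-2 over no IL-2, with the standard error (SE) of edgeR's quasi-likelihood fit and n = 3 per group. A gene is called when its Benjamini-Hochberg adjusted p over all 10702 genes is under 0.05, and "rose" or "fell" is written only of called genes.

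Reads in genes ranged from 16581624 to 30213895 per library without IL-2 and from 31912919 to 38797874 with WT IL-2. Of all reads behind the deposited RPKM, 40.5% ± 2.43 (SD, n = 3) lay outside the transcripts used without IL-2 and 31.7% ± 2.96 with it (two-sided exact permutation p = 0.1, the smallest that 3 against 3 allow), and the part of this difference in the results below was not tested except where a fit with it as a covariate is given. WT IL-2 replicate 1 stood apart from replicates 2 and 3. Its chi-square per degree of freedom over genes was 36.4 and 29.9 against them, while replicates 2 and 3 gave 7.76 and the control pairs 5.03 to 5.89. All 9 defining T cell and Treg markers were above the filter. Of the markers of other cells, 3 of 13 for B cells passed it (summed level of the 13, 7.90 to 8.28 RPKM without IL-2 and 6.63 to 7.53 with it), 1 of 24 for myeloid cells (5.31 to 5.67 and 4.97 to 5.33, with Marco, C1qa and C1qb at 0 reads in all 6 libraries), 1 of 14 for CD8 T and NK cells (9.16 to 9.49 and 8.89 to 9.35) and 2 of 20 for erythroid and stromal cells (86.9 to 91.0 and 76.1 to 77.7). The last sum is mostly Pecam1, which fell from 85.9 to 66.6 RPKM, and Epcam, which rose from 1.34 to 7.46 RPKM. These are bulk samples, in which fewer cells of a type and less RNA per cell cannot be told apart.

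Between WT IL-2 and no IL-2, 47.9% of the genes were called. Of 10702, 2675 rose (25%) and 2447 fell (22.9%), so the counts of rises and falls were close, but the sizes were not: 373 genes (3.49%) rose at least 2-fold against 129 (1.21%) that fell as much, and 77 (0.719%) rose at least 4-fold against 3 (0.028%), namely Fam101b, Bcl6 and Tktl1. In 58.8% of all genes the groups did not overlap, with the 3 WT IL-2 libraries above the 3 controls in 30.3% and below them in 28.5%. Counts of called or non-overlapping genes given below are to be read against these shares. Genes that rose held 19.5% to 19.8% of all RPKM in the control libraries and 26.8% to 28.2% with WT IL-2, and genes that fell held 24.5% to 25.1% and 17.3% to 18.6%. The direction of both shifts follows from choosing the genes by their calls in the same libraries. At 2-fold the counts were 604 rises and 64 falls on RPKM without TMM, 576 and 342 without the filter on low values, and 388 and 201 without WT IL-2 replicate 3, the library on which the number of falls depended most. Libraries with WT or ortho IL-2 outnumber the controls, so the filter admits genes present only with IL-2 more readily than the reverse. Rises were 74.3% of the 2-fold calls with the filter and 62.75% without it. The even split depends on the scaling. On RPKM as deposited, without TMM, the median log2 fold change of all genes moved from 0.01 to 0.22, 4630 genes were called higher and 895 lower, and 83.8% of calls were rises in place of 52.2%. Small falls below are therefore falls relative to the median gene, and where the counts of a list turned on that scale they are given beside it. The medians of the lists of STAT, KLF and FOXO, and Ikaros factors, EGR, NR4A and IER genes, B7 ligands, condensin, Schlafen and GIMAP genes, Polycomb complexes, and RNA polymerases I and III also turned, from between -0.16 and -0.00 to between 0.06 and 0.22. With a covariate for the share of reads outside genes, 1217 genes were called higher and 913 lower. At 2-fold that fit called 387 rises and 109 falls. Of the genes named below, those called here but not with the covariate were Bak1, Batf, Bax, Bcl2a1b, Cdkn1b, Ddx52, Dusp7, Eif4ebp2, Foxp3, Gapdh, Ikzf2, Il2rg, Il4ra, Inpp5d, Irf4, Malat1, Mcm2, Odc1, Pmaip1, Psmb5, Ptpn11, Ptprc, Tfeb, Rpl4, Rpl41 and Rps2, as well as Bach2. Those called lower here but not on RPKM without TMM were Bach2, Bcl2a1b, Btg1, Ddx52, Eif4ebp2, Ikzf2, Il2rg, Il16, Mcm6, Mxi1, Pecam1, Pmaip1, Ptprc, Socs5, Stat4, Stat5a and Tet3, and those called higher there but not here were Ikzf1, Il15ra, Jak3, Prdm1, Qars and Stat3.

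**Figure D1:**
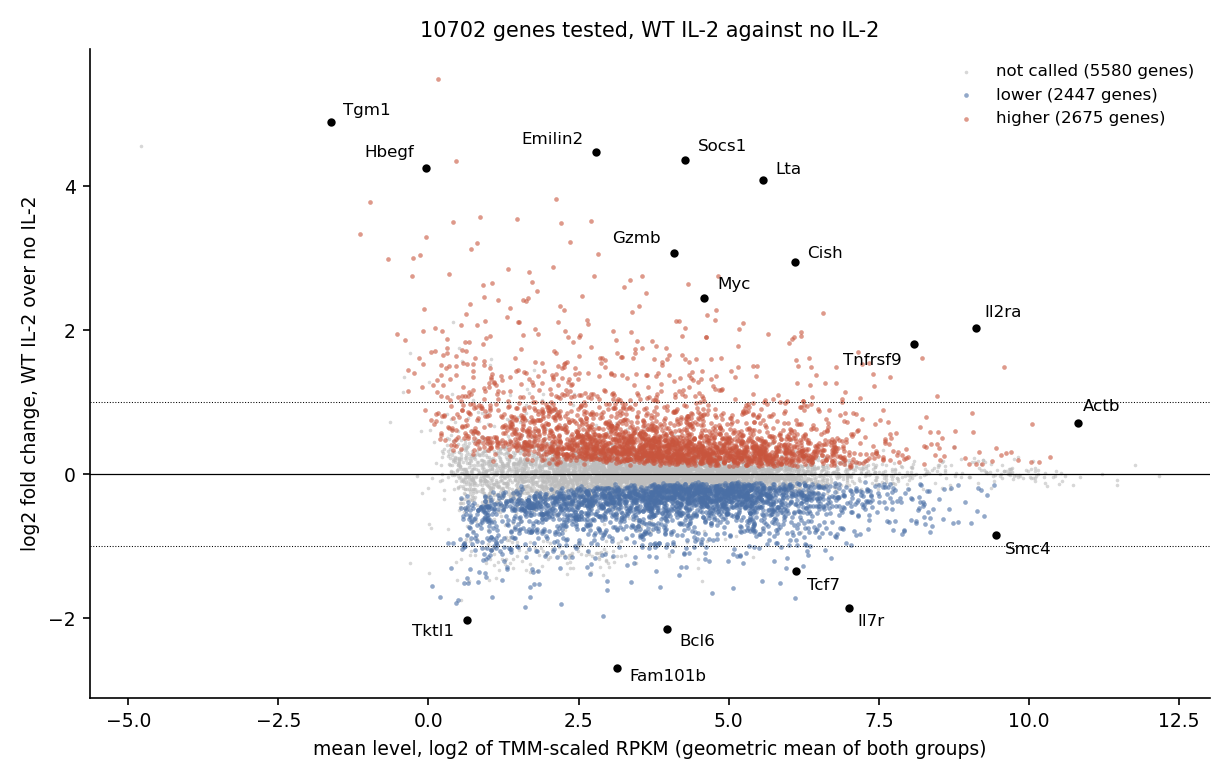
Each point is 1 of the 10702 genes, with its mean level on the x axis (log2 of TMM-scaled RPKM) and its log2 fold change on the y axis, coloured by call, with dotted lines at 2-fold. Among the labelled genes, rises extend past 4 on the log2 scale for Socs1, Lta, Emilin2, Tgm1 and Hbegf, whereas the 3 largest falls of all genes (Fam101b, Bcl6 and Tktl1) lie between -3 and -2.

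Il2ra and Il2rb were among the 15 largest gains in RPKM. Il2ra, the chain that gives the receptor its high affinity, stood at 272, 276 and 275 RPKM without IL-2 and 1094, 1159 and 1131 RPKM with it, a 4.11-fold rise (log2 2.04 ± 0.05, edgeR adjusted p = 2.69e-09). Il2rb stood at 162, 173 and 176 RPKM without IL-2 and 598, 474 and 487 RPKM with it (log2 1.61 ± 0.09, edgeR adjusted p = 5.53e-07). The groups were far apart in both genes and replicate 1 was the highest of the treated libraries for Il2rb. All cells also carry a transduced beta chain, so reads of Il2rb cannot be assigned to the endogenous gene alone, and mouse Egfr, the only Egfr in the tables, had 8 to 19 reads per library. Il2rg stood at 296, 308 and 304 RPKM without IL-2 and 270.0, 284 and 275 RPKM with it, a change of -0.13 ± 0.04 that was called lower, turned to 0.08 on RPKM without TMM, and lost its call without control replicate 2 or 3 or without WT IL-2 replicate 1 or 3 (-0.13 to -0.11 in those fits). Of the other receptors that pair with the gamma chain, Il7r, the IL-7 receptor, stood at 246, 247 and 240.2 RPKM without IL-2 and 57, 74.1 and 72.3 RPKM with it, one of the 25 largest falls by fold (3.61-fold, log2 -1.85 ± 0.09, edgeR adjusted p = 1.96e-07). Il4ra was at 61.5 to 80.2 RPKM (log2 0.38, called, but not with the covariate), and Il15ra (0.24) and Il21r (0.01) were not called.

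Below the receptor, the kinases and STAT factors moved down or little. Jak1 fell from 325 ± 3.65 to 209.9 ± 8.96 RPKM (SD, n = 3) and Jak2, the kinase of other cytokine receptors, from 104 ± 1.26 to 61.7 ± 5.91 RPKM. Jak3, the partner of the gamma chain, was at 44.9, 44.1 and 47.9 against 79.7, 48.7 and 56.1 RPKM, with WT IL-2 replicate 1 far above the other 5 libraries, and was not called (log2 0.43, edgeR adjusted p = 0.0543), though it was called higher by DESeq2 (0.42), with the 6 libraries alone (0.43, adjusted p = 0.0487), with the replicate block (0.41), without the filter (0.48), without WT IL-2 replicate 2 (0.57), on RPKM without TMM (0.65), with limma (0.60 to 0.61) and with GC offsets, where its value was 0.18. Tyk2 did not move measurably (0.03). Stat5b fell from 132 ± 1.02 to 83.4 ± 5.55 RPKM (log2 -0.67 ± 0.05), Stat5a from 33.9 to 25.2 RPKM (-0.43) and Stat4 from 102 to 79 RPKM (-0.37), the last 2 without a call on RPKM without TMM. Stat2, which carries type I interferon signals, rose from 16.9 to 23.4 RPKM (0.47). Stat3 (0.09) and Stat6 (-0.00) were not called.

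The inhibitors of the same pathway rose by larger factors. SOCS proteins are induced by STAT factors, bind the receptor or the JAK kinases and end the signal, and 6 of the 8 members tested rose and 1 fell. Socs1, which binds JAK kinases directly, stood at 3.33, 3.9 and 5.75 RPKM without IL-2 and 114, 70.3 and 74.3 RPKM with it, a 20.6-fold rise (log2 4.37 ± 0.27, edgeR adjusted p = 8.98e-07). Cish, which binds the IL-2 receptor beta chain, stood at 23.8, 24.4 and 25.9 RPKM without IL-2 and 223, 172 and 176 RPKM with it (7.73-fold, edgeR adjusted p = 6.54e-08). Replicate 1 was the highest treated library for both, and even the lowest treated value exceeded the highest control several times over. Socs3 was at 9.54, 9.93 and 8.98 against 45.5, 35.9 and 35.4 RPKM (4.1-fold) and Socs2 at 94.1, 97.5 and 93.4 against 265, 287 and 277 RPKM (2.91-fold). Socs7 rose by 0.50 on the log2 scale, Socs5 fell from 21 to 15.7 RPKM without a call on RPKM without TMM, and Socs6 was not called (-0.12). Per length, Cish and Socs2 were the most abundant members after WT IL-2, and Socs1 passed from the lowest member to the third.

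**Figure D2:**
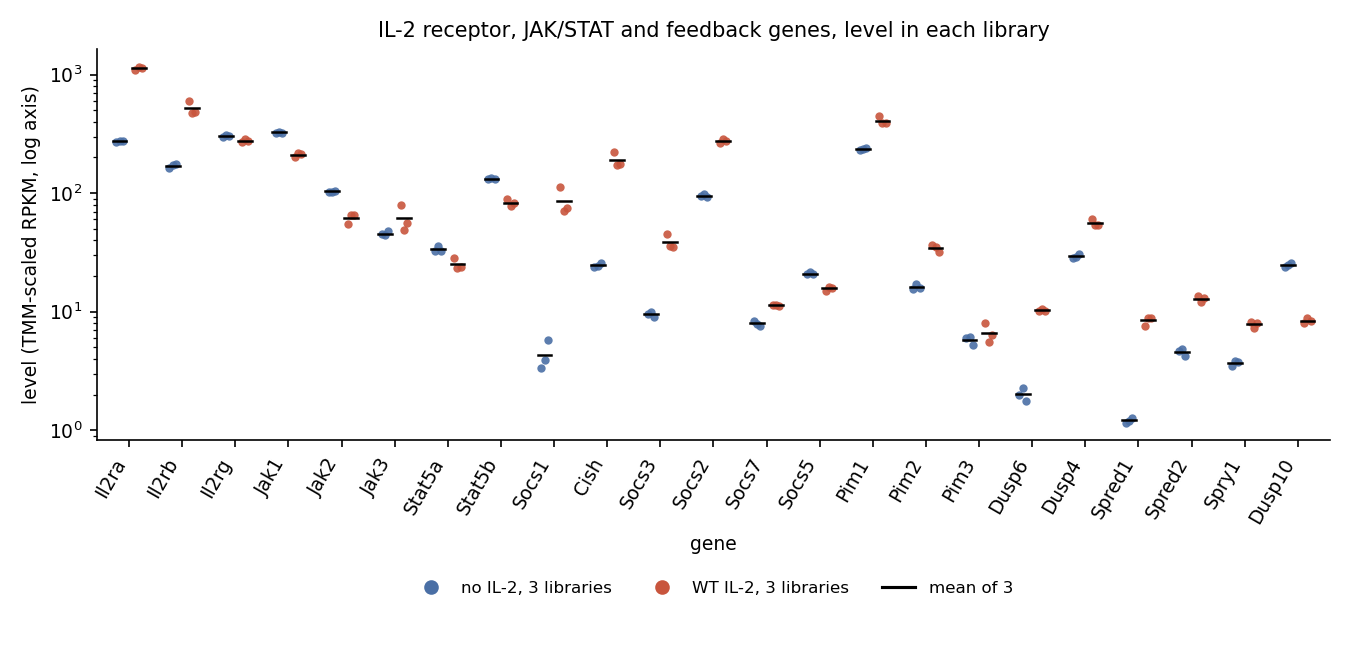
Levels of 23 genes of the IL-2 pathway on a log axis, with 3 points per group (blue, no IL-2; red, WT IL-2) and a bar at each mean. The separation is widest for Socs1, Cish, Dusp6 and Spred1, and Jak1, Jak2, Stat5b and Dusp10 run the other way. The groups of Il2rg and Jak3 come close without overlap, and those of Pim3 overlap.

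Phosphatases that act on JAK and STAT proteins rose in 4 of 7 members and fell in 1, all by less than 2-fold. Ptpn1 rose from 33.2 ± 0.747 to 54.9 ± 3.15 RPKM (SD, n = 3), Ptprj from 36.3 to 49.7 RPKM, Ptpn6 (SHP-1) from 38.7 to 49.5 RPKM and Ptpn11 (SHP-2) from 17.9 to 20.5 RPKM. Ptprc (CD45), the most abundant of them per length, was at 637, 631 and 648 against 487, 588 and 566 RPKM (log2 -0.22) and was called lower, a call lost without any control library, without WT IL-2 replicate 1 or 3 and without the filter (-0.25 to -0.15 in those fits). Ptpn2 (-0.11) and Dusp3 (-0.00) were not called. The PIM kinases, short-lived kinases set by their transcript level, rose in 2 of 3 cases. Pim1 was at 232, 236 and 239.7 against 448, 392 and 389 RPKM (log2 0.80 ± 0.06, edgeR adjusted p = 5.50e-06) and Pim2 rose from 16.1 ± 0.808 to 34.4 ± 2.43 RPKM (2.13-fold). Pim3, the lowest of the family per length, was not called (6.0, 6.15 and 5.21 against 8.0, 5.57 and 6.37 RPKM).

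Promoter sequence was available from RefSeq (build GRCm38.p6, 250 bases before to 50 after each annotated start) for 8426 of the 10702 genes. The motif TTCNNNGAA, which reads the same on both strands, was present in 12.2% of 385 promoters of genes that rose at least 2-fold, in 7.01% of 10670 promoters of all tested genes and in 4.69% of 128 promoters of genes that fell at least 2-fold. Among all 32851 promoters listed, 8.30% held it. More than 1 match occurred in 2.34% of the 385 and in 0.440% of the 10670. In the 200 bases before the start alone the shares were 9.09%, 4.73% and 3.91%. Several promoters of strongly moved genes that held more than 1 match are shown here, 5′ to 3′ on the gene's strand with the matches in capitals, and they include 1 gene that fell. Cish lies on the plus strand (chr9:107296599-107296678), with the matches at and just past this annotated start. Lta, the gene of lymphotoxin alpha, lies on the minus strand (chr17:35205352-35205511). The others are Irf8 on the plus strand (chr8:120736178-120736227), Gbp7 on the plus strand (chr3:142530216-142530265), Tgm1 on the minus strand (chr14:55713543-55713672), Aldh18a1 on the minus strand (chr19:40588489-40588623) and Bcl6 on the minus strand at an alternative start (chr16:23981359-23981463).
Cish: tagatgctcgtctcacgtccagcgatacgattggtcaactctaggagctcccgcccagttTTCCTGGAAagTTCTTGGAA
Lta: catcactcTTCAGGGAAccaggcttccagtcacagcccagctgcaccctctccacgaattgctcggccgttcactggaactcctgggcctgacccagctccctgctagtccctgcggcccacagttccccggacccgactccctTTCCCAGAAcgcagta
Irf8: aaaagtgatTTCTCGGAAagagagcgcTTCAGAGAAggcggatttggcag
Gbp7: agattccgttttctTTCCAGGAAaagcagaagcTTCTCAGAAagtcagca
Tgm1: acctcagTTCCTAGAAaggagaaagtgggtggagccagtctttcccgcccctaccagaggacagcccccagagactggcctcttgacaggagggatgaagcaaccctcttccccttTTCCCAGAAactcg
Aldh18a1: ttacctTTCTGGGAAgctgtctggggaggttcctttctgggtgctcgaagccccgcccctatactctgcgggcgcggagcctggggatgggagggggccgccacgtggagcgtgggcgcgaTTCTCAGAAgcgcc
Bcl6: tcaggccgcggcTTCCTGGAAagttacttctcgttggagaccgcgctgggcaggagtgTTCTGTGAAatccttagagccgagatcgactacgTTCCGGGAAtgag
A match is a description of the letters and not a bound site. Bcl6, with 3 matches in the stretch shown, fell, while the other 6 genes rose. The letters CACGTG, an E-box bound by MYC and MAX, were in 11.7% of the promoters of genes that rose at least 2-fold, 10.4% of tested promoters and 9.38% of those of genes that fell as much (7.15% of the whole table). The FOXO motif TGTTTAC was in 2.86%, 2.67% and 7.81% (3.65% of the whole table) on either strand, but in the 200 bases before the start the share among fallen genes was 1.56%. A match to TTCNNNGAA cannot share a base with a match to either of the other motifs, whereas those can share bases at their ends.

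The RAS and ERK pathway has its own induced inhibitors, and these rose too. All 3 Sprouty and Spred genes tested, which block RAS and RAF activation, rose: Spred1 was at 1.16, 1.2 and 1.27 against 7.56, 8.88 and 8.9 RPKM (7.0-fold, edgeR adjusted p = 1.15e-07), Spred2 rose from 4.6 ± 0.309 to 12.9 ± 0.684 RPKM and Spry1 from 3.7 ± 0.172 to 7.84 ± 0.508 RPKM (SD, n = 3). Among 9 dual specificity phosphatases, which remove phosphate from MAP kinases, 5 rose and 2 fell. Dusp6, specific for ERK, was at 2.0, 2.27 and 1.77 against 10.1, 10.6 and 10.1 RPKM (5.04-fold), and Dusp4 rose from 29.4 to 55.9 RPKM, Dusp1 from 12.7 to 23.1 RPKM and Dusp7 from 8.62 to 13.1 RPKM. Dusp10, which acts on the stress kinases p38 and JNK, moved against them, at 24, 24.9 and 25.5 against 8.01, 8.86 and 8.3 RPKM (2.95-fold lower, edgeR adjusted p = 7.42e-08). The groups did not overlap in any of these 8 called genes, as in 58.8% of all genes tested. Of 12 FOS, JUN, BATF and MAF factors 5 rose and 3 fell (3 and 1 with the covariate): Fos rose from 2.42 to 7.78 RPKM, Jund from 15.3 to 33.4 RPKM and Jun from 6.16 to 11.6 RPKM, and Fosl2 fell from 48.3 to 34 RPKM. Batf, a factor of effector Tregs, rose from 40.6 to 50.9 RPKM but lost its call with the covariate, and Bach2 (-0.13) was called lower here, lost that call with the 6 libraries alone (adjusted p = 0.0521), without any 1 of them (-0.15 to -0.11) and turned to 0.09 on RPKM without TMM.

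Inhibitors of PI3 kinase and mTORC1 split. Of 18 tested, 7 fell and 2 rose, with a list median of -0.01 that turned to 0.20 on RPKM without TMM, where 5 fell and 5 rose. Sesn1, a sestrin that restrains mTORC1 when leucine is low, was at 96.5, 96.7 and 98 against 38.2, 40 and 39.5 RPKM (log2 -1.31 ± 0.04, edgeR adjusted p = 8.86e-09). Pik3ip1, which inhibits PI3 kinase at the membrane, fell from 56.8 ± 1.36 to 26.5 ± 0.171 RPKM, and Phlpp1, a phosphatase of AKT, from 82.9 ± 2.0 to 41.2 ± 1.75 RPKM (SD, n = 3). Sesn3 fell from 91.3 to 58.9 RPKM. The 2 that rose were lipid phosphatases, Inpp4b (98.8 to 124 RPKM) and Inpp5d (41.9 to 48.7 RPKM). FOXO factors, which AKT excludes from the nucleus, include Foxo1, which fell from 106 ± 2.51 to 61.3 ± 3.14 RPKM, and Foxo4, from 19 to 12.4 RPKM. Among 17 KLF and FOXO factors 6 fell and 3 rose: Klf3 fell from 50.5 to 30.9 RPKM, Klf11 from 3.32 to 1.58 RPKM, and Klf6 rose from 70.1 to 109 RPKM. Klf2, a FOXO1 target that keeps T cells recirculating, was not called (90.7, 94 and 90.8 against 121, 90.2 and 86.2 RPKM), and its groups overlapped.

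Genes of T cell receptor (TCR) signalling fell more often than they rose, 11 against 5 of 23, though their median of -0.15 turned to 0.07 on RPKM without TMM (6 fell and 8 rose) and only 3 rose without control replicate 1. Sla, which promotes TCR breakdown, fell from 149 ± 3.15 to 83.6 ± 5.85 RPKM, the phosphatase Ptpn22 from 54.7 to 32.6 RPKM, the adaptor Sh2d2a from 53.9 to 33.9 RPKM and the inhibitory receptor Cd5 from 173 ± 4.32 to 117 ± 12.3 RPKM (SD, n = 3). The adaptor Lcp2 (SLP-76) rose from 84.6 to 113 RPKM and Vav1 from 31.7 to 39.7 RPKM. Cd4 fell from 212 to 147 RPKM and Cd3g from 338 to 244 RPKM. Among 12 ubiquitin ligases and diacylglycerol kinases linked to anergy 4 rose and 4 fell (1 and 3 with the covariate). Cblb, a ligase that restrains TCR signals, fell from 89.4 ± 1.15 to 47.6 ± 0.697 RPKM and Dgka from 402 to 287 RPKM, whereas Nedd4l rose from 8.26 to 19 RPKM (2.31-fold). RGS genes, which shorten G protein signals, split widely: Rgs1 rose from 129.6 ± 1.72 to 329 ± 44.1 RPKM and Rgs2 fell from 125 ± 1.9 to 38 ± 2.99 RPKM, with Rgs10 (174 to 116 RPKM) and Rgs16 (4.94 to 2.93 RPKM) also down. Of 8 RGS genes 3 rose and 4 fell (1 and 3 with the covariate).

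Foxp3 itself was at 134, 138 and 138 RPKM without IL-2 and 269.9, 195 and 200.05 RPKM with it (log2 0.70 ± 0.12, edgeR adjusted p = 9.98e-04). The groups did not overlap, replicate 1 exceeded the other treated libraries, and with the covariate the gene was not called (log2 0.52). Among 29 effector and lineage factors 13 rose and 12 fell (8 and 10 with the covariate). Myb, needed for effector Tregs to mature, was at 13.3, 12.8 and 12.9 against 54.9, 57.6 and 59.1 RPKM (4.39-fold, edgeR adjusted p = 1.69e-09), Id2, an inhibitor of E proteins, rose from 21.4 ± 1.7 to 54.7 ± 1.82 RPKM, Irf8 from 2.59 ± 0.324 to 6.66 ± 0.518 RPKM, and Hivep3 from 0.667 to 2.09 RPKM (SD, n = 3). Bcl6, the factor of follicular helper and follicular regulatory T cells, was at 33.4, 33.5 and 31.9 against 7.05, 7.58 and 7.68 RPKM (4.43-fold lower, edgeR adjusted p = 1.42e-08). Tcf7, which encodes TCF1 and marks central, memory-like T cells, was at 109, 112 and 112 against 46.8, 41.6 and 43.1 RPKM (2.53-fold lower). Epas1 fell from 2.57 to 0.765 RPKM and Hhex from 2.86 to 1.13 RPKM. Prdm1, which encodes the BCL6 antagonist BLIMP1, was not called (7.18, 7.13 and 7.22 against 7.24, 7.57 and 7.59 RPKM) except on RPKM without TMM (0.27) and with limma, and Irf4 (14.4 to 16.9 RPKM) was called but lost that call with the covariate. Gfi1, outside these lists' leading members but among the 25 largest falls, fell from 5.74 ± 0.31 to 1.99 ± 0.0754 RPKM, and Bhlhe41 from 1.79 ± 0.0861 to 0.612 ± 0.122 RPKM. Of the Ikaros family, Ikzf4 (Eos), a Foxp3 partner, rose from 31.7 ± 1.24 to 56.8 ± 5.74 RPKM, Ikzf3 (Aiolos) fell from 89.5 ± 2.6 to 49.8 ± 1.2 RPKM, and Ikzf2 (Helios) was called lower at 182 to 149 RPKM, a call lost without control replicate 1 (-0.28) or WT IL-2 replicate 1 (-0.22). Ikzf1 (0.04) and Ikzf5 (-0.09) were not called.

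**Figure D3:**
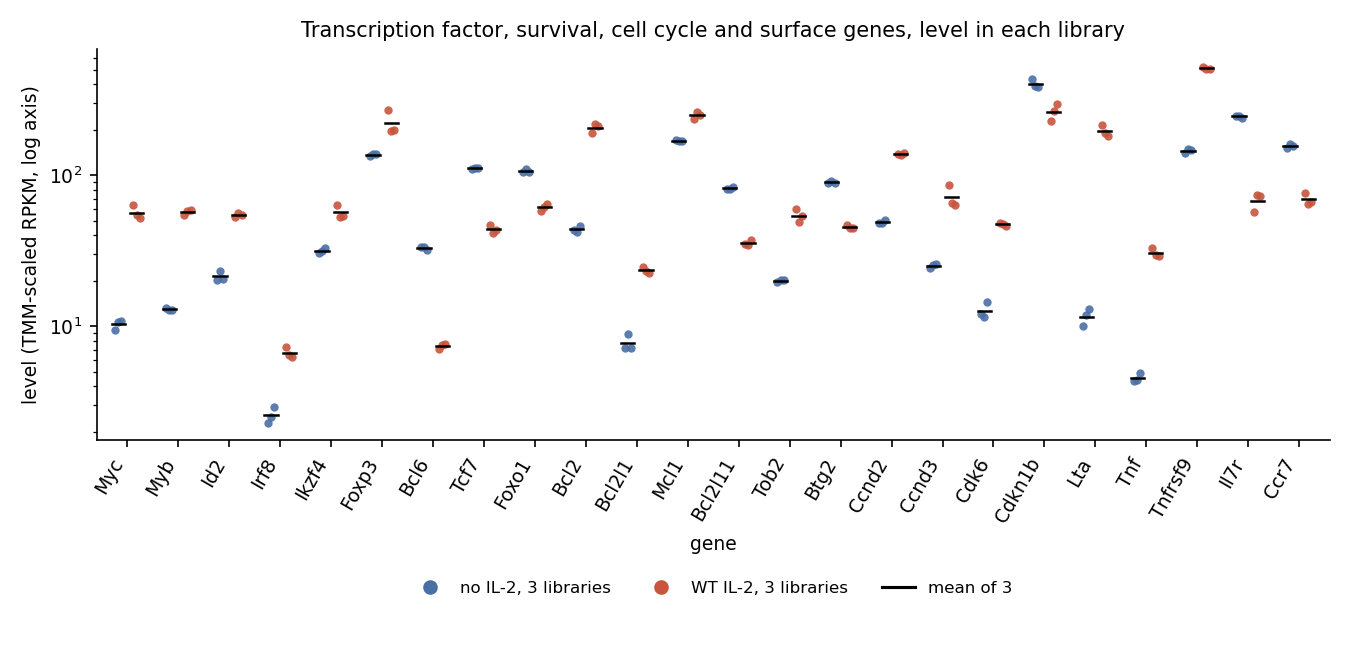
Levels of 24 regulators, survival, cell cycle and surface genes on a log axis, with 3 points per group (blue, no IL-2; red, WT IL-2) and a bar at each mean. Among them, Myc, Myb, Bcl2, Ccnd2 and Lta were higher with WT IL-2, and Bcl6, Tcf7, Foxo1, Bcl2l11 and Il7r lower.

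MYC, the driver of growth and biosynthesis, was at 9.48, 10.7 and 10.8 RPKM without IL-2 and 63.1, 54.2 and 52.2 RPKM with it for its gene Myc (5.48-fold, edgeR adjusted p = 3.01e-08). In the network of its partners 4 of 10 rose and 2 fell (5 and 0 on RPKM without TMM). The antagonist Mxd1 rose from 24.7 to 40.2 RPKM, the common partner Max from 77 to 95 RPKM and Mlx from 14.9 to 20.5 RPKM, while Mxi1 fell from 50.9 to 42 RPKM. Immediate early and calcium-responsive genes did not move as a block: of 10 EGR, NR4A and IER genes and NFAT factors 3 rose, among them Nfatc2 (17.9 to 31.5 RPKM) and Ier3 (2.71 to 6.08 RPKM), and 3 fell, Nr4a1 (12.5 to 7.61 RPKM), Nr4a2 (3.65 to 1.78 RPKM) and Nfatc3 (74.8 to 53.1 RPKM). Nr4a1 and Nr4a2 are commonly read as marks of recent TCR signals. Of 12 NF-kappaB genes 2 rose and 3 fell, beside 25% and 22.9% of all genes. On RPKM without TMM 4 rose and 1 fell, with GC offsets 2 rose and 7 fell, and with the covariate 1 rose and 1 fell. Without control replicate 1 or 2 or WT IL-2 replicate 2, 1 fell. Tnfaip3, which encodes the inhibitor A20, fell from 172 ± 4.1 to 89 ± 2.8 RPKM, and Nfkbiz, a nuclear cofactor, rose from 14.3 ± 0.785 to 34.9 ± 1.12 RPKM (SD, n = 3).

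Surface receptors of the TNF family rose in 8 of 17 members and fell in 4, beside 25% and 22.9% of all genes. The costimulatory receptors Tnfrsf9 (141, 148 and 146 against 519.6, 504 and 502 RPKM), Tnfrsf4 (OX40, 112 to 260.4 RPKM) and Tnfrsf18 (GITR, 242 to 514 RPKM) gained 3.51-fold, 2.33-fold and 2.12-fold. All 3 are known from activated Tregs. The groups did not overlap in any of them, as in 58.8% of all genes tested. Tnfrsf8 (CD30) rose from 0.649 to 2.34 RPKM and Relt from 3.97 to 8.49 RPKM. Tnfrsf14 (HVEM) fell from 51.4 to 30.2 RPKM. Among 11 ligands 6 rose and 1 fell. Lta was at 9.98, 11.8 and 13 against 215, 189 and 182 RPKM (17-fold, edgeR adjusted p = 2.69e-09) and its neighbour Tnf at 4.37, 4.39 and 4.88 against 33, 29.5 and 29 RPKM (6.75-fold). Both sets of values lay far apart, with replicate 1 the highest. Mir6974, an 83-base miRNA entry on chromosome 17 at 35204475 to 35204557 inside the Lta gene, had 1, 0 and 0 reads without IL-2 and 48, 18 and 17 with it, and reads of the Lta transcript cannot be told apart from it. Tnfsf14 (LIGHT) rose from 0.583 to 2.32 RPKM and Tnfsf11 (RANKL) from 6.95 to 12.5 RPKM, while Cd40lg fell from 11.4 to 7.23 RPKM.

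Costimulatory and inhibitory receptors, of the CD28 and SLAM families and others, mostly ran the other way, with 10 of 17 lower and 4 higher (median -0.51). Pdcd1, which encodes PD-1, was at 37.8, 39.9 and 38.4 against 17.5, 17.1 and 15.6 RPKM (2.31-fold lower, edgeR adjusted p = 2.57e-07). Cd28 fell from 186 ± 1.3 to 104 ± 10.8 RPKM, Tigit from 49.1 ± 1.97 to 31.5 ± 1.2 RPKM and Slamf6 from 58.2 ± 2.73 to 37.4 ± 1.45 RPKM (SD, n = 3). Ctla4, the inhibitory receptor through which Tregs strip CD80 and CD86 from other cells, was at 673, 672 and 671 against 431, 492 and 489 RPKM and fell by 0.51 on the log2 scale. Those that rose included Slamf1 (24.1 to 36.7 RPKM), Cd48 (110.3 to 163 RPKM) and Icos (167 to 227 RPKM). Of 5 B7 ligands Icosl rose most, from 14 to 24.4 RPKM.

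Cytokine genes rose in 6 of 12 cases and fell in 2. Lif was at 2.6, 2.28 and 2.5 against 21.6, 21.2 and 18.5 RPKM (8.31-fold), Osm at 8.26, 7.15 and 8.59 against 54.8, 49.3 and 45.3 RPKM (6.25-fold), and Hbegf, a ligand of the EGF receptor, at 0.327, 0.19 and 0.129 against 4.46, 4.18 and 4.59 RPKM (19.1-fold, edgeR adjusted p = 1.18e-07). The groups were far apart in all 3. Tgfb1 rose from 45.5 ± 2.61 to 109 ± 14.9 RPKM (SD, n = 3). Il16 fell from 55.6 to 45.6 RPKM. Among suppressive and purine pathway genes 10 of 20 rose and 5 fell. Gpr83, a receptor long used as a Treg marker, was at 11, 10.3 and 11.2 against 75.4, 73.9 and 69.5 RPKM (6.72-fold), Capg rose from 83.5 to 167 RPKM and Neb from 2.12 to 5.15 RPKM. Ada, which degrades adenosine, rose from 2.72 to 5.02 RPKM and Adk, which phosphorylates it, fell from 103 ± 3.47 to 56.4 ± 4.18 RPKM. Nrp1 fell from 73 ± 2.21 to 40.3 ± 2.31 RPKM.

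Granule genes rose in 7 of 13 cases. Gzmb, the main granzyme of activated Tregs, was at 5.55, 6.18 and 5.79 against 47.8, 52.7 and 46.9 RPKM (8.41-fold, edgeR adjusted p = 2.69e-09). Gzma rose from 3.21 to 7.76 RPKM, Prf1 (perforin) from 1.42 to 3.33 RPKM and Gzmc from 3.08 to 5.77 RPKM, all of them low beside Gzmb. Srgn, the proteoglycan that packs granules and the most abundant member per length, was the single one that fell, from 662 ± 17.4 to 414 ± 41.8 RPKM (SD, n = 3). Granzymes are a family of close copies, and how the authors' counting split shared reads is not given in the sources used here.

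Chemokine receptors mostly fell, and genes of homing and adhesion split. Of 11 chemokine receptors 7 fell and 1 rose (median -0.43): Ccr7, which brings T cells into lymph nodes, was at 151, 160.0 and 155 against 76.1, 64.6 and 66.8 RPKM (2.24-fold lower, edgeR adjusted p = 1.56e-06), Cxcr4 fell from 155 ± 4.36 to 91.7 ± 2.83 RPKM and Ccr2 from 73.4 ± 1.33 to 43.4 ± 5.64 RPKM, and Ccr4, a skin homing receptor, rose from 23.7 to 34.9 RPKM. Of 23 homing and adhesion genes 10 fell and 7 rose (8 and 3 with the covariate), with a median of -0.13 that turned to 0.09 on RPKM without TMM (8 fell and 9 rose). S1pr1, which lets cells leave lymph nodes, fell from 274 ± 4.72 to 175 ± 4.58 RPKM (SD, n = 3). The integrin chains Itga4 (58 to 24.8 RPKM) and Itgae (83.1 to 47.2 RPKM) fell as well. Cd69, which draws S1PR1 off the surface, rose from 30.8 to 45 RPKM. S1pr3 rose from the lowest level of the list, 0.143, 0.109 and 0.164 against 2.02, 1.67 and 1.95 RPKM, and stayed low.

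Receptors for other cytokines showed 9 falls and 4 rises among 21, with a median of -0.11 that turned to 0.11 on RPKM without TMM (7 and 7). Both chains of the IL-12 receptor rose, Il12rb1 from 4.43 to 9.52 RPKM and Il12rb2 from 2.92 to 5.42 RPKM, and Il10ra rose from 42.7 to 61.4 RPKM. Il6ra fell from 60.3 ± 0.737 to 33.8 ± 0.654 RPKM (SD, n = 3), Ifnar1, of the type I interferon receptor, from 74.6 to 45 RPKM, Il1rl1 (ST2, the IL-33 receptor) from 40.8 to 27.5 RPKM and Prlr from 5.8 to 1.78 RPKM. The groups did not overlap in any of these 7 called genes, as in 58.8% of all genes tested.

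Interferon-stimulated genes rose in 21 of 30 cases and fell in 2, with a median of 0.59 beside 0.01 over all genes (18 and 1 with the covariate). The leading genes encode guanylate-binding and immunity-related GTPases, which act against intracellular pathogens. Gbp5 was at 38.7, 37.7 and 36.7 against 128, 148 and 151 RPKM (3.78-fold), Igtp rose from 87.7 ± 5.45 to 254 ± 19 RPKM and Gbp7 from 71.3 ± 0.929 to 172 ± 19.4 RPKM (SD, n = 3). Isg20, a nuclease, rose from 5.24 to 20.6 RPKM. Against these, Ifit2, a classical type I interferon target, fell from 17.4 to 10.6 RPKM. Gbp7 is among the genes whose promoters with more than 1 TTCNNNGAA match are printed above. Of 17 genes of MHC class I presentation 11 rose and 1 fell (5 and 0 with the covariate): Psmb8, an immunoproteasome subunit, rose from 142 ± 6.11 to 239.6 ± 18.5 RPKM and the peptide transporter Tap2 from 57.7 ± 0.913 to 93.6 ± 10.4 RPKM. B2m, the light chain of class I, was not called (1879, 1953 and 1812 against 1778, 1842 and 1863 RPKM) and is one of the most abundant transcripts per length.

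**Figure D4:**
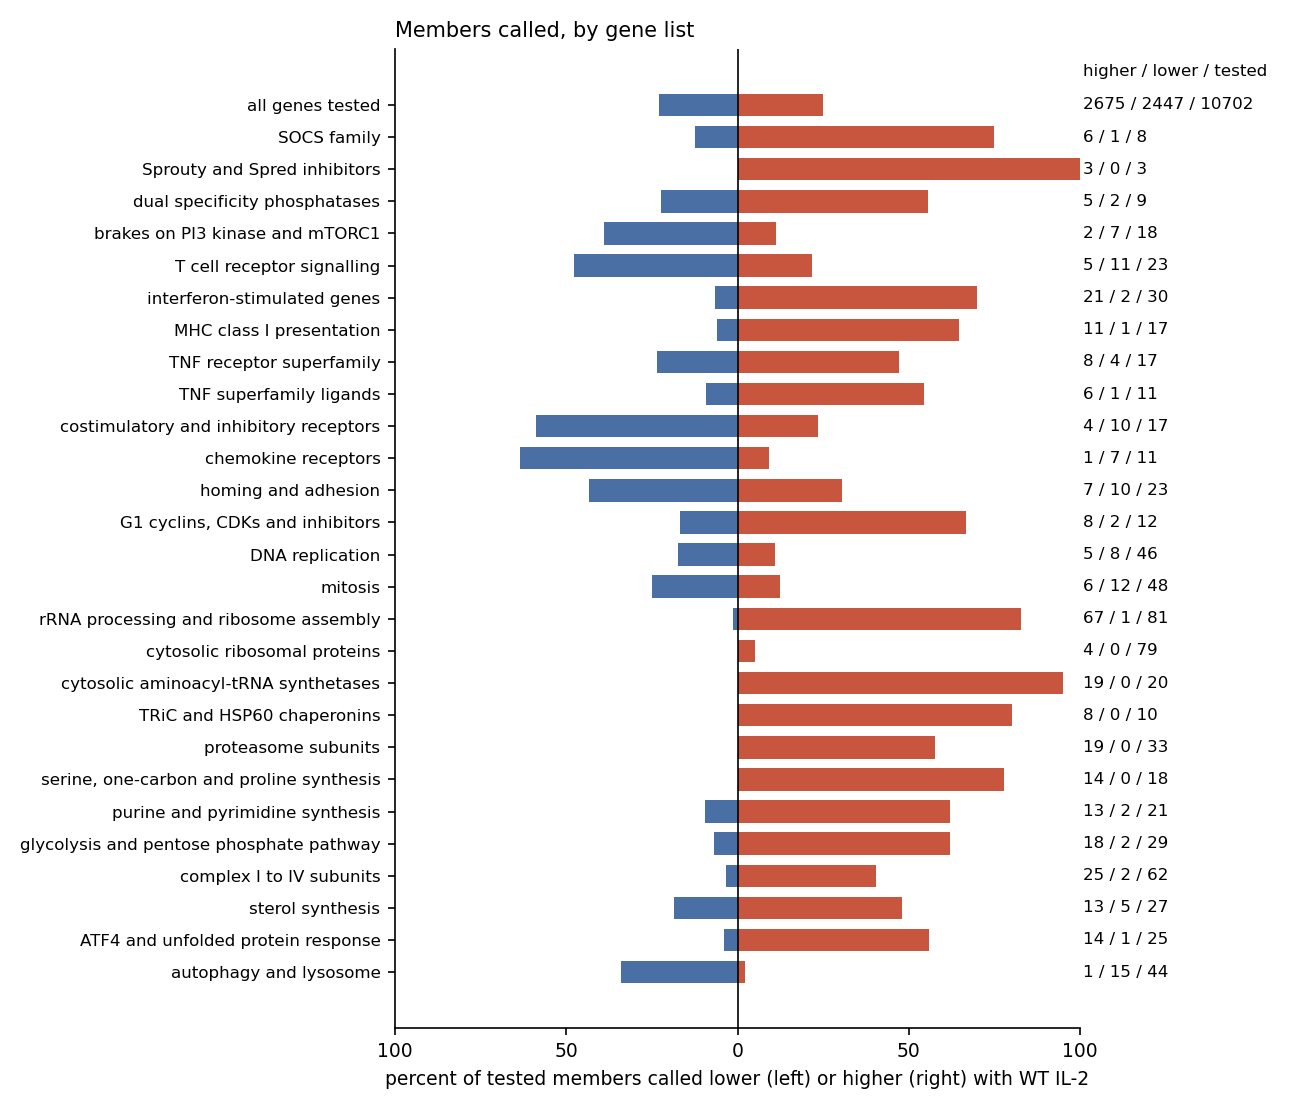
Percent of the tested members of 27 gene lists called higher (right, red) or lower (left, blue) with WT IL-2, with the counts at the right and all 10702 genes in the top bar. Cytosolic tRNA synthetases (19 of 20 higher), rRNA processing (67 of 81) and interferon-stimulated genes (21 of 30) lie far above the 25% of all genes, and chemokine receptors (7 of 11 lower) and costimulatory receptors (10 of 17 lower) above its 22.9%.

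Of 7 survival genes of the BCL2 family 3 rose and 1 fell, with a median of 0.06, and of 7 death genes 3 rose and 2 fell (3 and 1 on RPKM without TMM, 3 and 3 with GC offsets or without WT IL-2 replicate 1, and 1 and 1 with the covariate). Bcl2 was at 43.4, 42.3 and 46.2 RPKM without IL-2 and 191, 217 and 212 RPKM with it (4.7-fold, edgeR adjusted p = 2.52e-08), Bcl2l1 (BCL-XL) at 7.22, 8.84 and 7.17 against 24.6, 23.2 and 22.7 RPKM (3.02-fold), and Mcl1 rose from 169 ± 2.14 to 249 ± 13.9 RPKM (SD, n = 3). Bcl2a1b fell from 6.98 to 5.24 RPKM, a call lost without control replicate 1 (-0.31) or WT IL-2 replicate 1 (-0.33), with the replicate block (-0.43) and without the filter (-0.37), and it is one of several close copies of A1 whose reads can be confused. Bcl2l11, which encodes BIM, the death factor that lymphocytes raise on cytokine loss, was at 80.4, 81.1 and 83.5 against 35, 34.6 and 37.2 RPKM (2.29-fold lower, edgeR adjusted p = 2.52e-08). Not all death genes fell: Bid rose from 3.03 to 5.26 RPKM, Bak1 from 19.1 to 27.3 RPKM and Bax from 63.4 to 86.2 RPKM, Pmaip1 fell from 27.3 to 22.1 RPKM, and Bbc3 and Bad were not called (-0.31 and 0.04), although Bbc3 was called lower without WT IL-2 replicate 1 (-0.48) and with GC offsets (-0.62). Without IL-2 the Bcl2l11 level was 1.86 times the Bcl2 level per length, and with it 0.172 times.

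Genes that slow proliferation split. Btg2, an antiproliferative cofactor of mRNA deadenylation, fell from 89.8 ± 1.11 to 45.5 ± 1.13 RPKM, Tob1 from 58.7 ± 5.71 to 32.5 ± 4.76 RPKM and Btg1 from 219 to 181 RPKM, whereas Tob2 rose from 20.1 ± 0.338 to 54.1 ± 5.17 RPKM (SD, n = 3) and Btg3 from 13 to 18.2 RPKM. Zfp36l2 and Zfp36l1, which bind AU-rich elements and send mRNA to decay, fell from 193 to 109 RPKM and 201 to 129 RPKM. Of 8 such decay factors 4 fell and none rose, but on RPKM without TMM 2 fell and 2 rose. Of 22 genes of p53 and its targets 8 fell and 5 rose, and only 3 rose without control replicate 1 or without WT IL-2 replicate 1 (4 and 10 on RPKM without TMM, where the median turned from -0.05 to 0.16). Trp53inp1 fell from 314 ± 10.5 to 178 ± 26.7 RPKM and Ddb2 from 54.6 to 33.6 RPKM, and Cdkn1a (p21) rose from 49.5 ± 0.22 to 81.3 ± 4.08 RPKM, Aen from 9.58 to 19.6 RPKM and Plk3 from 1.69 to 4.66 RPKM.

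Most genes of the G1 phase rose. Of 12 G1 cyclins, kinases and inhibitors 8 rose and 2 fell (4 and 0 with the covariate). Ccnd2 was at 48.3, 48.5 and 50.5 against 138, 137 and 140.3 RPKM (2.82-fold), Ccnd3 at 24.3, 25.3 and 25.8 against 86, 65 and 63.8 RPKM (2.85-fold), and their kinase Cdk6 at 12.1, 11.5 and 14.5 against 48.3, 47.2 and 46.3 RPKM (3.74-fold). The groups were far apart in all 3. Cdkn1b, which encodes the inhibitor p27, fell from 402 ± 27 to 263 ± 35.3 RPKM (SD, n = 3) but was not called with the covariate. Rb1, the brake that cyclin D kinases release, fell from 69 to 44.3 RPKM, and E2f3 rose from 4.14 to 6.88 RPKM and Tfdp1 from 30 to 45.6 RPKM. Of 13 RB and E2F factors 4 rose and 4 fell (2 and 3 with the covariate).

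Replication and mitosis genes as groups stayed near the median gene. Of 46 replication genes 5 rose and 8 fell, with a median of -0.03, and the balance was not stable: 16 rose and 2 fell on RPKM without TMM (median 0.19), 0 rose and 3 fell with the covariate, 5 and 5 without control replicate 1, 3 and 4 without control replicate 3, and 4 and 4 without WT IL-2 replicate 1. Mcm2 rose from 12.7 to 15.7 RPKM and Mcm6, of the same helicase, was lower at 44.6 to 35.4 RPKM. Of 48 mitotic genes 6 rose and 12 fell (median -0.10), but 15 rose and 1 fell on RPKM without TMM (median 0.11), 0 and 3 with the covariate, 2 and 8 without control replicate 1, 5 and 6 without control replicate 2, and 6 and 7 without WT IL-2 replicate 1. Cenpa, the centromeric histone, fell from 120.3 ± 5.87 to 86.9 ± 3.96 RPKM. Smc4, a condensin subunit and the most abundant of 8, fell from 943 ± 10.5 to 525 ± 71.2 RPKM, one of the largest losses in RPKM, while Smc2, its partner in the complex, was not called (54.7, 53.7 and 52.5 against 44, 55.4 and 55.2 RPKM).

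Ribosome assembly genes rose nearly throughout. Of 81 genes of rRNA processing and ribosome assembly 67 rose and 1 fell (42 and 0 with the covariate), with a median of 0.48 beside 0.01 for all genes. Naf1, an assembly factor of H/ACA particles, was at 8.88, 8.28 and 8.63 against 34.2, 40.1 and 38.5 RPKM (4.37-fold, edgeR adjusted p = 2.00e-08), Bysl, of the small subunit, rose from 1.04 ± 0.19 to 3.96 ± 0.595 RPKM, Rrp12 from 0.979 to 2.99 RPKM and Tsr1 from 5.03 to 13.4 RPKM. Ddx52 was the single member called lower (38.1 to 32.3 RPKM). The ribosomal proteins themselves did not follow: 4 of 79 were called higher (among them Rps2, Rpl41 and Rpl4) with a median of 0.03, against 39 on RPKM without TMM, 0 with the covariate, 1 without control replicate 1 or 3, and 2 without control replicate 2 or WT IL-2 replicate 1. Without WT IL-2 replicate 2, 5 rose and 3 fell. Gene by gene, the smallest of these calls (Rpl41 and Rps2) were lost without most single libraries. Ribosomal protein genes have many near-identical pseudogene copies, so these values are uncertain. Of 29 subunits and factors of RNA polymerases I and III 8 rose and 3 fell, beside 25% and 22.9% of all genes. The counts were 13 and 0 on RPKM without TMM, 5 and 0 with the covariate, and 8 and 1 without control replicate 1. The leading rises were small in level (Cd3eap, 6.11 to 12 RPKM, and Polr3e, 2.2 to 4.08 RPKM).

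**Figure D5:**
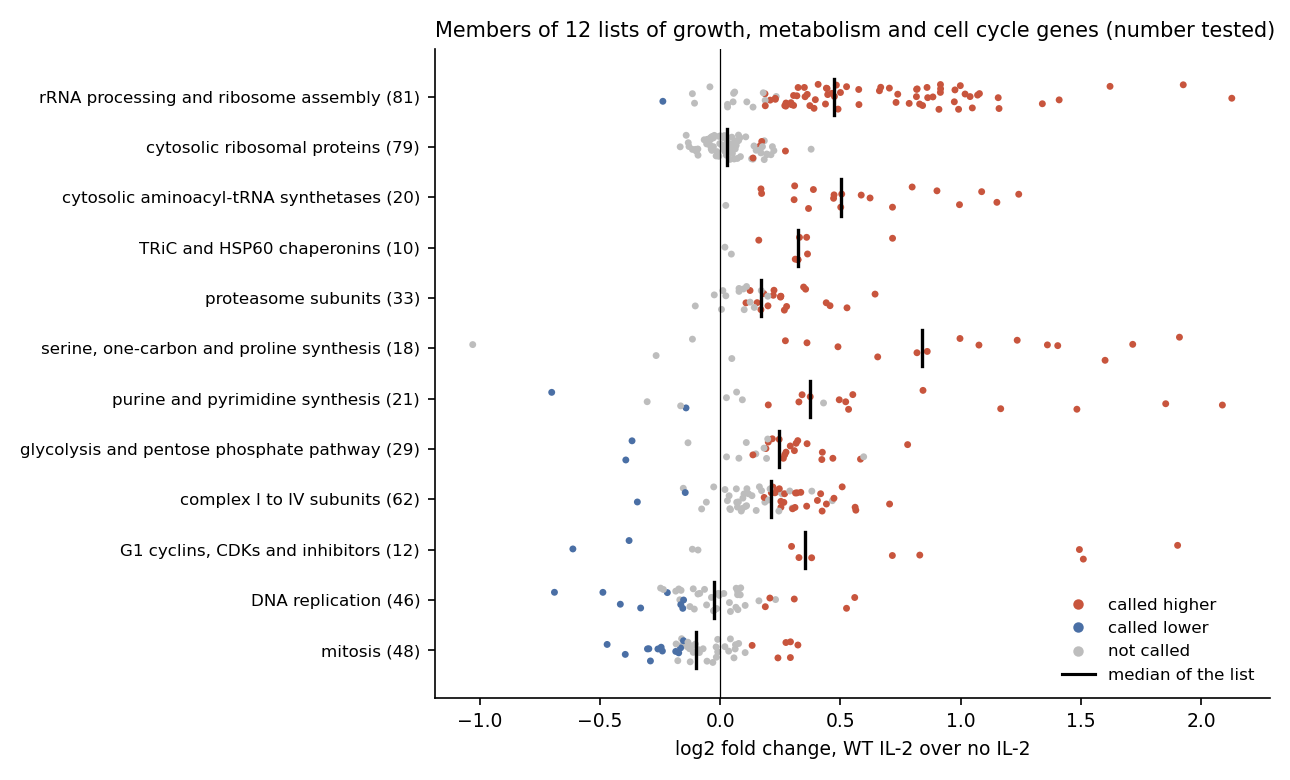
Log2 fold changes of every tested member of 12 lists, 1 point per gene coloured by call, with a black bar at the median of each list. Ribosome assembly genes spread from just under 0 to above 2, cytosolic ribosomal proteins stay within 0.4 of 0, and replication and mitosis genes fall on both sides of 0.

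Translation genes rose as well. Of the 20 cytosolic aminoacyl-tRNA synthetases 19 rose, all but Qars, which is named after its values were seen (15 with the covariate, median 0.50), led by Mars (6.98 ± 0.311 to 16.5 ± 0.812 RPKM; SD, n = 3), Iars (12.1 to 26.9 RPKM), Wars (13.2 to 28.2 RPKM) and Aars (15.6 to 31.1 RPKM). The mitochondrial synthetases, by contrast, rose in 7 of 16 cases, and in 0 with the covariate. Of 42 initiation factors 19 rose and 1 fell (8 and 0 with the covariate). Eif5a, the hypusinated factor that helps ribosomes through prolines, was at 100.4, 105 and 109 against 280.1, 275 and 271 RPKM, Eif4a1, the helicase, rose from 139 ± 1.17 to 258 ± 10.6 RPKM and Eif3b from 36.9 to 61.9 RPKM. Eif4ebp2, which binds and blocks eIF4E, fell from 66.8 to 52.2 RPKM. Srm, which makes the spermidine that eIF5A's hypusine comes from, was at 1.96, 2.15 and 2.35 against 10.6, 8.85 and 8.32 RPKM (4.34-fold), although of its 13 polyamine genes only it and Odc1 (42.4 to 50.5 RPKM, not called with the covariate) rose and 4 fell, while 4 rose without WT IL-2 replicate 1 or 2 and 7 rose and 1 fell on RPKM without TMM.

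Folding and import machinery rose in the same range. Of 10 chaperonin subunits 8 rose (4 with the covariate), led by Cct3 (35.6 to 58.6 RPKM), and of 25 genes of mitochondrial import and prohibitins 15 rose and 2 fell (5 and 0 with the covariate), led by Phb (16.5 ± 1.38 to 41.3 ± 1.08 RPKM; SD, n = 3) and Timm8a1 (5.69 to 12.4 RPKM). Hspa9, the mitochondrial HSP70, rose from 39.4 to 69.3 RPKM and Fkbp4, an HSP90 cochaperone, from 15.3 to 21.4 RPKM, among 9 rises and 1 fall in 19 HSP70 and HSP90 genes (4 and 0 with the covariate). Of 33 proteasome subunits 19 rose and none fell, with a median of no more than 0.17, 12 without control replicate 3, and 2 with the covariate. Psmb5, a catalytic subunit, rose from 23.1 to 36 RPKM. The secretory side of the cell is represented by Xbp1, the factor of the unfolded protein response, at 36, 36.1 and 39.8 against 149, 145 and 143 RPKM (3.91-fold), and its chaperones Pdia4 (39.9 ± 0.489 to 120.2 ± 6.07 RPKM) and Sdf2l1 (5.45 to 9.8 RPKM), within a list of 25 ATF4 and unfolded protein response genes of which 14 rose and 1 fell (6 and 0 with the covariate).

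Most genes of amino acid and nucleotide synthesis rose. Of 18 genes of serine, one-carbon and proline synthesis 14 rose and none fell (12 with the covariate, median 0.84). Asns, which makes asparagine, was at 2.77, 3.33 and 2.67 against 10, 11.5 and 11.6 RPKM (3.76-fold), Aldh18a1, the first step of proline synthesis, at 14.5, 15.2 and 15.3 against 49.3, 44.6 and 42.2 RPKM (3.03-fold) and Psat1, of serine synthesis, rose from 8.71 ± 0.346 to 23.1 ± 1.16 RPKM (SD, n = 3). Shmt1 rose from 0.842 to 2.83 RPKM. The transporters Slc7a5, for large neutral amino acids such as leucine, and Slc7a1, for arginine, rose from 5.97 ± 0.35 to 19.8 ± 2.55 RPKM and 5.3 ± 0.228 to 13.7 ± 0.594 RPKM, and Slc7a7 fell from 4.32 to 2.54 RPKM. Of 21 genes of purine and pyrimidine synthesis 13 rose and 2 fell (7 and 1 with the covariate). Cad, which carries out the first steps of pyrimidine synthesis, was at 2.93, 3.01 and 3.22 against 14.7, 12.1 and 12 RPKM (4.25-fold), Nme1 at 6.18, 7.85 and 6.73 against 27.6, 24.5 and 22.8 RPKM (3.61-fold), Ctps rose from 2.85 to 7.93 RPKM, and Ctps2, the second CTP synthase, fell from 33.1 to 20.4 RPKM.

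Energy genes moved broadly, mostly by little. Of 29 glycolysis and pentose phosphate genes 18 rose and 2 fell, with a median of 0.25 (7 and 1 with the covariate). Pkm was at 769, 746 and 729.8 against 969, 915 and 910.1 RPKM and was not called with GC offsets (0.15). Gapdh was at 1204, 1236 and 1169 against 1536, 1419 and 1324 RPKM, was not called with the covariate or with GC offsets, and can share reads with its pseudogenes. Slc16a1, a lactate carrier, rose most, from 4.69 to 8.06 RPKM. Of 62 subunits of complexes I to IV 25 rose and 2 fell (1 and 1 with the covariate, and 14 and 1 without control replicate 1 or 3), led by Cycs, cytochrome c (16.1 to 26.2 RPKM). Of 27 TCA cycle genes 11 rose and 5 fell (5 and 3 with the covariate), with log2 changes from -0.75 to 1.38 and 1 rise of at least 2-fold. Suclg2, of succinyl-CoA ligase, was at a log2 change of 0.49. Pdk2, a kinase that blocks pyruvate dehydrogenase, fell from 5.87 to 3.48 RPKM.

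Genes of lipid synthesis and iron uptake had their own leading rises. Mvd rose from 1.29 to 3.3 RPKM and Sqle from 4.16 to 8.08 RPKM, while Mylip, a ubiquitin ligase, fell from 18.3 ± 0.497 to 8.96 ± 0.339 RPKM and Abca1, a cholesterol exporter, from 3.1 to 1.57 RPKM. Of 27 sterol genes 13 rose and 5 fell (7 and 3 with the covariate). Of 11 fatty acid genes 5 rose and 2 fell, with Elovl6 at 11.3, 11.2 and 12.2 against 50.4, 56.5 and 53.5 RPKM (4.62-fold) and Fasn rising from 7.5 to 16.4 RPKM. Tfrc, the transferrin receptor, rose from 82.3 ± 0.847 to 170.3 ± 16.9 RPKM (SD, n = 3). Autophagy and lysosome genes fell in 15 of 44 cases and rose in 1 (7 and 0 with the covariate), but their median of -0.11 turned to 0.10 on RPKM without TMM, where 5 fell and 10 rose. Ctsl, a lysosomal protease, was at 59.3, 58.4 and 56 against 18.1, 20.9 and 19.2 RPKM (2.99-fold lower, edgeR adjusted p = 6.53e-08) and Atg14 fell from 10.7 to 7.02 RPKM. Tfeb, the factor that drives lysosome genes, was the one that rose (3.17 to 5.91 RPKM).

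In the gene families of lymphocyte homeostasis and chromatin no called change reached 2-fold. Their counts stand beside 25% of all genes that rose and 22.9% that fell. Of 8 GIMAP genes 3 fell and 1 rose (1 and 4 on RPKM without TMM), and only 1 fell without any of the 3 control libraries in turn. Of 8 Schlafen genes 1 fell. Of 20 Polycomb genes 6 fell and 4 rose (1 and 8 on RPKM without TMM, and 2 rose without control replicate 2), with Ezh2 at 85.8 to 108 RPKM, and of 10 DNA methylation genes 4 rose and 2 fell (6 and 0 on RPKM without TMM), with Dnmt3b at 1.78 to 2.53 RPKM and Tet3 at 22.4 to 18 RPKM. Hypoxia genes were called more often than all genes, with 9 of 18 rising and 6 falling and log2 changes from -1.75 to 0.52. The counts were 10 and 1 on RPKM without TMM and 4 and 2 with the covariate. Without control replicate 1 or 2 or WT IL-2 replicate 2 they were 5 and 6.

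Several of the largest fold changes were in genes outside those lists, most of them at low levels. Tgm1, a transglutaminase, had 2, 3 and 6 reads without IL-2 and 195, 151 and 142 with it. Emilin2, an extracellular matrix protein, was at 1.19, 1.43 and 1.85 against 34.9, 31.1 and 30.4 RPKM (22.1-fold, edgeR adjusted p = 4.55e-09). The transglutaminase Tgm2 rose from 1.93 to 21.8 RPKM, the glycine cleavage enzyme Gldc from 0.395 to 4.48 RPKM, the transcription factor Creb5 from 0.52 to 6.37 RPKM and Podxl, a sialomucin, from 0.312 to 3.05 RPKM. Fut4, a fucosyltransferase, rose from 0.301 to 2.33 RPKM and the guanine nucleotide exchange factor Mcf2l from 0.822 to 9.4 RPKM. Both dynein heavy chain genes Dnah7a and Dnah7b, close copies whose reads can be confused, rose, from 1.38 to 15.4 RPKM and 0.313 to 2.61 RPKM. Among the falls Fam101b, a regulator of actin filaments, was at 21.8, 23.3 and 21.9 against 3.28, 3.39 and 3.71 RPKM (6.47-fold lower, edgeR adjusted p = 3.24e-09). Tktl1 fell from 3.14 to 0.769 RPKM, Gng4 from 2.55 to 0.744 RPKM, the receptor kinase Fgfr1 from 2.54 to 0.893 RPKM, St8sia6, a sialyltransferase, from 46.5 to 14.9 RPKM, Mical2 from 6.08 to 2.11 RPKM and Ednrb from 2.97 to 1.06 RPKM.

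In RPKM gained or lost, abundant genes of the cytoskeleton and surface led. Actb was at 1417, 1441 and 1386 RPKM without IL-2 and 2305, 2217 and 2420.4 RPKM with it (log2 0.71 ± 0.05), and Actg1 rose from 832 ± 32.6 to 1348 ± 80.3 RPKM, Vim (vimentin) from 459.7 ± 17.6 to 1287 ± 42.2 RPKM and Pfn1 (profilin) from 394 ± 16.1 to 708 ± 78.3 RPKM (SD, n = 3). Thy1 rose from 353 to 537 RPKM. Actin genes have pseudogene copies, so their values are uncertain to that extent. Only genes whose groups did not overlap were ranked here, so that separation is no added support. Among the losses were Smc4, Srgn and Ctla4, given above, with Malat1, a nuclear RNA, at 575, 426 and 702 against 367, 344 and 367 RPKM and called lower except with the covariate. Fam107b fell from 432.5 to 249 RPKM, Atp1b3 from 426 to 259 RPKM, Ms4a4b from 468 to 305 RPKM and Tmem123 from 318 to 184 RPKM.

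Genes that rose had a median transcript GC content of 52.4% and a median length of 2617 bases, those that fell 47.4% and 3371, and all tested genes 50% and 2732. Correction for GC content left 2945 genes called higher and 3037 lower. Of the genes named, Gapdh, Pkm and Rpl41 lost their call under it, and Bbc3 (-0.62), Stat6 (-0.09), Il15ra (0.26) and Jak3 (0.18) gained one. Il21r (-0.11), Klf2 (-0.14), Smc2 (0.12) and Tyk2 (-0.14) also gained a call, with their sign changed. The spread of replicates with WT IL-2 (biological coefficient of variation 10.7%) was larger than without it (5.31%), and GC offsets brought the first to 7.26% and the second to 5.30%.

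Against 2000000 IU/mL ortho IL-2, a dose that is not matched to the 20000 IU/mL of WT IL-2, the WT response was not distinguished for any gene: 0 of 10702 were called by edgeR in the direct contrast (149 at an unadjusted p under 0.05, smallest adjusted p = 0.909), and 0 by DESeq2 (114). Without WT IL-2 replicate 1 there were still 0 called, but 2616 had an unadjusted p under 0.05 and the smallest adjusted p was 0.173. The differences in log2, ortho minus WT, were -0.04 ± 0.05 for Il2ra, 0.11 ± 0.21 for Socs1, 0.07 ± 0.11 for Cish, -0.04 ± 0.08 for Bcl2 and -0.21 ± 0.07 for Bcl6 (SE, n = 3 per group). A p that misses the threshold does not show that the 2 ligands act alike.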

How the data were processed

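Messenger RNA was sequenced in 9 libraries, of which 6 enter the comparison. Per the file headers, each deposited table gives raw read counts and RPKM per RefSeq transcript. The genome build was mm10, and edgeR, TopHat2, Bowtie2, bedtools 2.25.0 and SAMtools 0.1.8 were run, per the submitters' processing notes. What each tool did, which one counted and whether strand was used is not given in the sources used here, so reads of overlapping genes cannot be told apart. Of 290 genes named, 68 overlap another gene's exons by at least 100 bases, 15 of them on the same strand. In the tables as the authors deposited them, RPKM is the count divided by transcript length and 1 whole number per library, which is larger than the reads in genes by the reads outside genes. The labels' growth protocol describes another assay, so the culture rests on the treatment protocol.

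Counts of the transcript with the most reads per symbol were fitted with edgeR 4.0.16 (R 4.3.3; TMM, quasi-likelihood, group means, all 9 libraries) for genes with at least 1 RPKM in 3 libraries, with a threshold of 0.05 on Benjamini-Hochberg adjusted p. The same code was first tested on simulated counts. Far fewer genes changed in these than were called here, with equal numbers up and down, so that test cannot judge the scaling. Replicate numbers did not pair the samples and give no block. Alternatives were DESeq2 1.42.0, limma 3.58.1 on log2(RPKM + 0.5, 0.1 or 1), upper-quartile scaling, RPKM divisors without TMM, GC offsets, no filter, the longest transcript, the 6 libraries alone, a replicate block, a covariate for reads outside genes, and leaving out each library. Named genes are the 25 largest rises and falls by fold and the 15 by RPKM among called genes whose groups do not overlap, the 4 called members with the largest change per direction of each gene list (all members of lists of up to 8), and a fixed set. The genes, the 77 lists and the rule were chosen with earlier results of these data known, so list counts carry no test. They are to be read against the shares over all genes, 25% higher and 22.9% lower. Promoter sequences are from RefSeq. Intervals are not given, and error estimates rest on 3 libraries per group. Precision depends on depth: the median SE of log2 fold change was 0.16 for genes under 2 RPKM and 0.06 for those above 50.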

Additional observations from a re-analysis of the deposited data

How the results depend on the processing

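The calls of 241 of the 290 genes named kept their direction and their side of the threshold under every alternative that gave a value. Counts of calls depended on the scaling. On RPKM without TMM 4630 genes were called higher and 895 lower, 604 and 64 of them at least 2-fold. Limma on log2(RPKM + 0.5), (RPKM + 0.1) and (RPKM + 1) gave 4482, 4495 and 4459 higher and 851, 839 and 867 lower, with 35, 58 and 23 lower at least 2-fold, and 568 higher at least 2-fold with 0.1. Without the filter (19806 genes) 576 rose and 342 fell at least 2-fold. With a covariate for reads outside genes 1217 were higher and 913 lower, which cannot be told apart from a weaker test since that share differs between the groups. Leaving out 1 library gave 2173 to 2595 higher, 1895 to 2297 lower, 352 to 390 higher at least 2-fold and 108 to 201 lower at least 2-fold, the last without WT IL-2 replicate 3. DESeq2, upper-quartile scaling, the 6 libraries alone, the longest transcript and GC offsets kept each count within 1.5 times. The contrast of ortho with WT IL-2 had 0 calls in each alternative.

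With the replicate block 2515 genes were higher and 2273 lower, 373 and 135 at least 2-fold. The samples share only a number: the correlations of same-numbered libraries' deviations were -0.05, -0.05 and -0.32. Changes of sign, with the cause not tested beyond the setting itself, were Bach2 (0.0865 on RPKM without TMM, 0.0846, 0.0860 and 0.0829 with limma on RPKM + 0.5, 0.1 and 1, 0.000739 with the covariate) and Il2rg (0.0827 on RPKM without TMM, 0.0826, 0.0828 and 0.0824 with limma). With GC offsets 4 uncalled genes were called with the other sign, Il21r (-0.11), Klf2 (-0.14), Smc2 (0.12) and Tyk2 (-0.14). Low counts limit Tgm1 and Mir6974, which had 6 reads or fewer in each control library.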
